A study of Mus musculus with 22 samples.

Results

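Neuregulin, ErbB and FGF signalling genes were followed in embryonic heart ventricles that lacked LIN9, Sav1 or both. The genes were chosen by name, as the rows of both count tables with the symbols Nrg1, Erbb2, Erbb3, Erbb4, Fgf9, Fgf16, Fgfr1 and Fgfr2, which are 8 of 48709 genes. Polyadenylated RNA came from mouse ventricles at E13.5, with 18 libraries in 2 experiments and 3 libraries for each of 6 genotype groups. The first experiment held LIN9 wt and LIN9 KO ventricles. Their labels name no Sav1 genotype, and it was taken as wild-type. The second held LIN9 wt Sav1 wt, LIN9 KO Sav1 wt, LIN9 wt Sav1 KO and LIN9 KO Sav1 KO ventricles. All embryos carried Nkx2.5-Cre, which acts in cardiac precursors, and the floxed alleles lose 1 exon of Lin9 or Sav1. In the study, LIN9 wt embryos were heterozygous, with 1 floxed Lin9 allele beside a normal one (Lin9 fl/+), while in the labels they are wild-type. LIN9 is a subunit of the MuvB complex, which controls cell cycle genes, and Sav1 is a scaffold of the Hippo kinases, which restrain YAP. Nothing in the labels says whether libraries of a group came from separate embryos, so p-values measure the spread between these libraries, which may be technical. For its LIN9 comparison the study names 2 biological replicates, each in triplicate.

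Neuregulin 1, the product of Nrg1, is an EGF-like ligand made by the endocardium. It binds Erbb3 and Erbb4 on neighbouring cells, and these pair with Erbb2, which has no known ligand of its own. In the ventricle this signal is required for the trabeculae to form. Fgf9 and Fgf16 are ligands made by the epicardium and endocardium, and they act through Fgfr1 and Fgfr2 on the underlying myocardium. Both families signal through adaptor proteins and the ERK kinase cascade, which induces its own inhibitors.

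Total counts ranged from 9485599 to 9615274 in the first and from 2770741 to 2999877 in the second experiment, so counting error was larger in the second. Levels are given as CPM, a library's count scaled by its TMM-normalized size, and the 2 tables were normalized separately. A change was called at an adjusted p under 0.05 in edgeR's quasi-likelihood test, with the adjustment over all genes tested. The whole-gene rows of Lin9 and Sav1 also count the exons that remain, so they do not check the labels. Lin9 measured 25.6 ± 4.19 CPM (SD, n = 3) in LIN9 wt and 20.6 ± 1.21 CPM in LIN9 KO ventricles of the first experiment. In the second it measured 26.8 ± 3.23 CPM in LIN9 wt Sav1 wt, 15.5 ± 2.38 in LIN9 KO Sav1 wt, 25.4 ± 6.11 in LIN9 wt Sav1 KO and 22.7 ± 3.85 in LIN9 KO Sav1 KO ventricles. Among the LIN9 comparisons, the fall of Lin9 was called with wild-type Sav1 in the second experiment (log2 fold change -0.80, adjusted p = 0.0027), and not in the first experiment (-0.31, 0.130) or with Sav1 KO (-0.16, 0.586). Sav1 measured 57.5 ± 3.88 CPM in LIN9 wt Sav1 wt and 40.7 ± 3.98 in LIN9 wt Sav1 KO ventricles, and 49.7 ± 2.29 against 42.3 ± 1.73 in the LIN9 KO background. Neither difference of Sav1 was called (log2 fold changes -0.50 and -0.23, adjusted p = 0.318 and 0.464).

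Deletion of Lin9 went with more Nrg1, less Erbb2 and more Fgfr1 RNA in each of the 3 comparisons of LIN9 KO with LIN9 wt ventricles. These 3 of 8 genes were called in every one of them, 2 higher and 1 lower. Over all genes, the first experiment called 20.9% of 19752 genes, 11.1% higher and 9.78% lower. With wild-type Sav1 in the second experiment 23.2% of 17675 genes were called, 12.8% higher and 10.5% lower, and with Sav1 KO 23.4%, 11.8% higher and 11.6% lower. The share of called genes among the 8 was 37.5% in each comparison, and with so few genes it is a description. The median log2 change of the 7 genes other than Fgf16, whose counts were too low for a fold change, was -0.15, -0.11 and 0.06, against 0.02, 0.01 and 0.03 for all genes. With the fitted values of Fgf16 included it turned sign in all 3 comparisons (0.02, 0.18 and -0.09). The LIN9 comparisons of both experiments with wild-type Sav1 share no library.

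**Figure D1:**
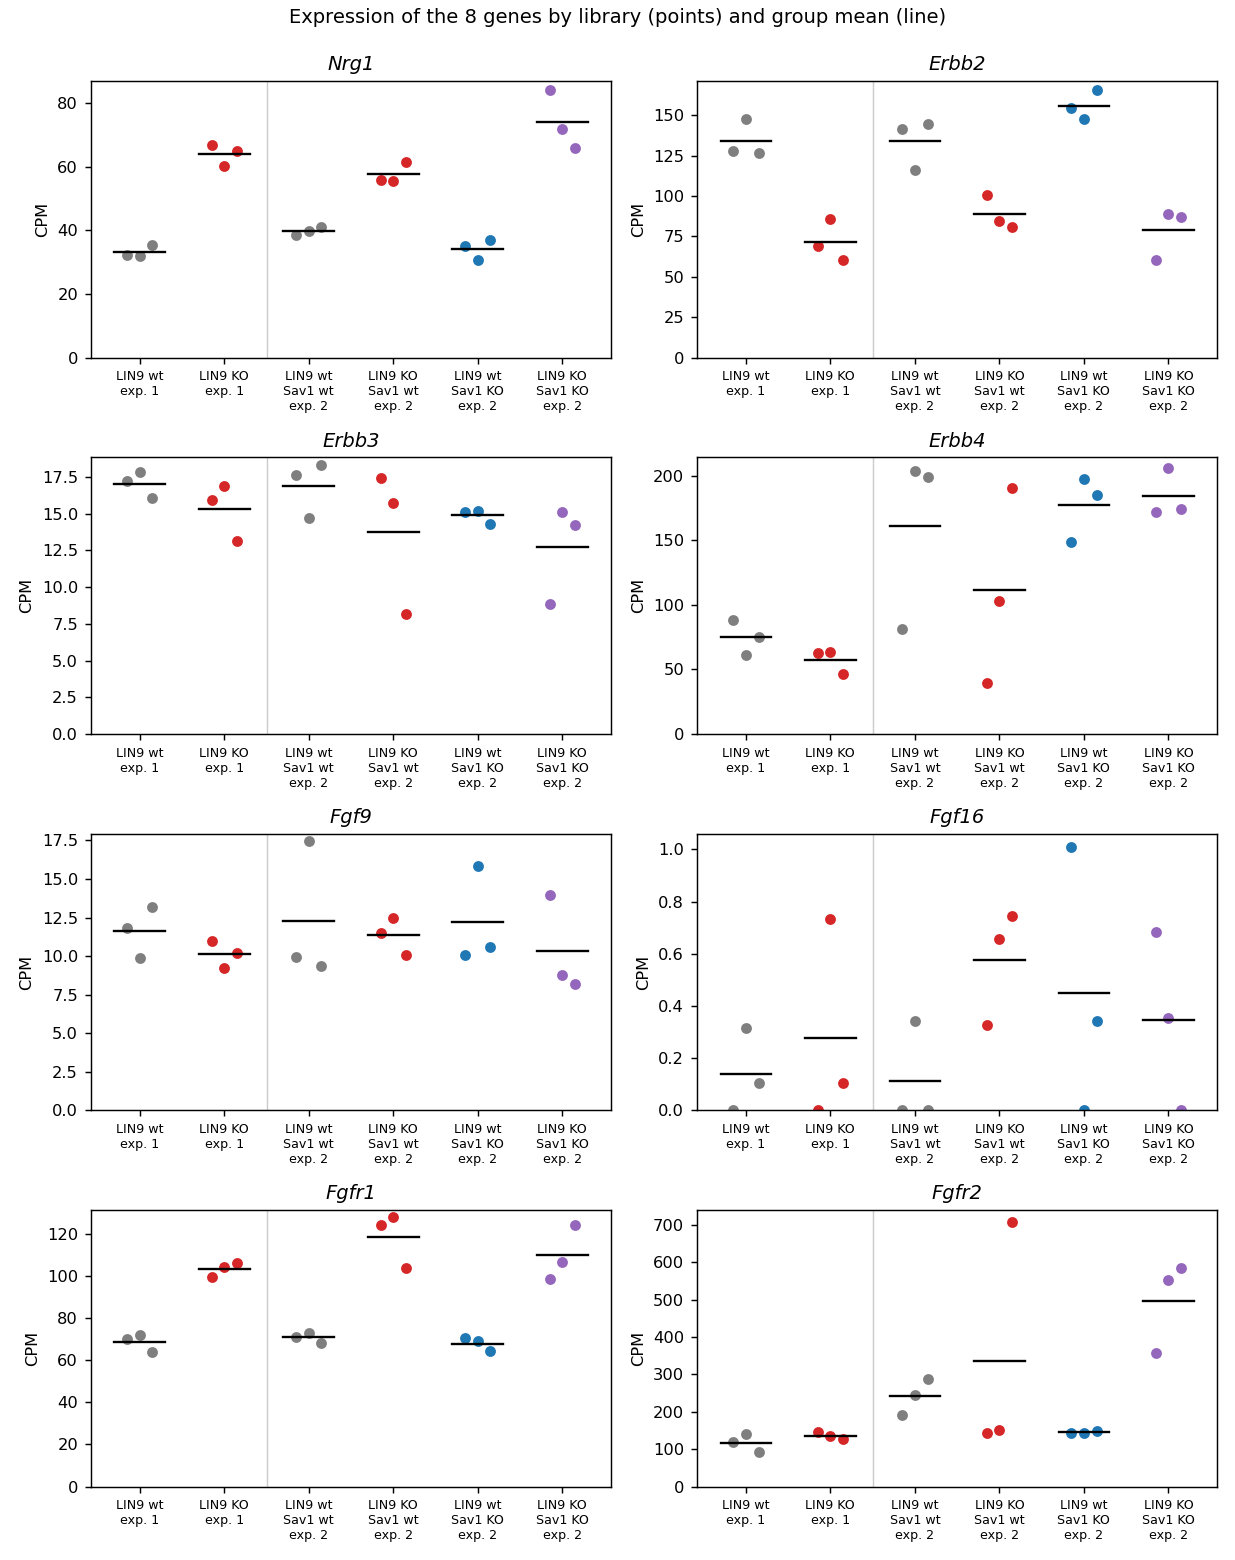
CPM of each of the 8 genes (vertical axes, from 0) in each library (points) of the 6 genotype groups, with the group mean as a line; the grey line parts the 2 experiments. Nrg1 and Fgfr1 lie higher and Erbb2 lower in every LIN9 KO library than in every LIN9 wt library of the same experiment and Sav1 genotype, while Erbb4 and Fgfr2 spread widely within groups of the second experiment.

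Nrg1 (chromosome 8, 31814551 to 32884029, minus strand, mm10) encodes the ligand. The gene spans 1069479 bases, so if reads in introns were counted, its row does not hold mRNA alone. In the first experiment it measured 32.3, 31.9 and 35.2 CPM in LIN9 wt and 66.9, 60.3 and 64.8 CPM in LIN9 KO libraries. All LIN9 KO libraries lay above all LIN9 wt libraries, with a log2 fold change of 0.95 ± 0.10 (SE), which is 1.93-fold (adjusted p = 1.53e-05). In the second experiment Nrg1 measured 38.6, 39.7 and 41.2 CPM in LIN9 wt Sav1 wt and 55.9, 55.4 and 61.5 CPM in LIN9 KO Sav1 wt libraries. The groups again did not overlap, and the rise was 0.53 ± 0.13 on the log2 scale, or 1.45-fold (adjusted p = 0.0023). With Sav1 deleted, Nrg1 measured 35.0, 30.7 and 36.8 CPM in LIN9 wt Sav1 KO and 84.2, 71.8 and 65.8 CPM in LIN9 KO Sav1 KO libraries. The LIN9 KO Sav1 KO libraries lay above all others of the second experiment, and the rise there was 1.11 ± 0.13, or 2.16-fold (adjusted p = 1.41e-07).

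Erbb2 (chromosome 11, 98412470 to 98437716, plus strand) encodes the shared partner of the ErbB receptors. It measured 128, 148 and 127 CPM in LIN9 wt and 68.7, 85.9 and 60.4 CPM in LIN9 KO libraries of the first experiment. The groups did not overlap, and Erbb2 fell by 0.90 ± 0.13 (SE) on the log2 scale (adjusted p = 0.000143). In the second experiment it measured 142, 116 and 144 CPM in LIN9 wt Sav1 wt and 101, 84.6 and 80.9 CPM in LIN9 KO Sav1 wt libraries, a log2 fold change of -0.59 ± 0.13 (adjusted p = 0.00105). With Sav1 deleted it measured 154, 148 and 166 CPM with LIN9 wt and 60.3, 88.8 and 86.8 CPM with LIN9 KO, a log2 fold change of -0.99 ± 0.13 (adjusted p = 2.22e-06). In both backgrounds each LIN9 KO library lay below each LIN9 wt library.

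The promoter of Erbb2 was read from RefSeq on GRCm38.p6, since Erbb2 is the called gene among the 4 of 8 genes with an entry in the promoter table; the other 3 are Erbb4, Fgf9 and Fgfr2. Each window runs from 250 bases before to 50 bases after the start of transcription. The stretch of 236 bases from chr11:98412234-98412469 on the plus strand, which ends before the first exon of the GENCODE M21 annotation, is shown 5′ to 3′, with a GGAATG motif in capitals.
Erbb2: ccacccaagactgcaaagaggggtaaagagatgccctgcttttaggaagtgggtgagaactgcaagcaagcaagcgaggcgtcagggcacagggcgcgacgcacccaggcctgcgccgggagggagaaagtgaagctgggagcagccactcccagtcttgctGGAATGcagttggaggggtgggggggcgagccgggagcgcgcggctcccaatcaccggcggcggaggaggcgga
GGAATG is the core motif of the TEAD factors, through which YAP binds DNA. It was searched on both strands, and its only match in the 4 windows was this one, 88 bases before the RefSeq start. That start lies past the GENCODE start, at which the printed stretch ends. In the window and in the printed stretch the motif begins at base 163. Of 32851 promoter windows, 14.7% hold it. TTTGAA, the core of the CHR element that MuvB binds, had no match on either strand in these 4 windows and is in 17.9% of all windows. A match is a description of letters and not a binding site.

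Erbb3 (chromosome 10, 128567523 to 128589652, minus strand) and Erbb4 (chromosome 1, 68032186 to 69108059, minus strand) encode the receptors that bind neuregulin. Erbb4 spans 1075874 bases, so its row has the same limit as that of Nrg1. Erbb3 measured 17.2, 17.8 and 16.1 CPM in LIN9 wt and 15.9, 16.9 and 13.2 CPM in LIN9 KO libraries of the first experiment. In the second it measured 17.6, 14.7 and 18.3 CPM in LIN9 wt Sav1 wt, 17.4, 15.7 and 8.20 in LIN9 KO Sav1 wt, 15.1, 15.2 and 14.3 in LIN9 wt Sav1 KO and 8.86, 15.1 and 14.2 in LIN9 KO Sav1 KO libraries. The groups overlapped in the 3 LIN9 comparisons, with log2 fold changes of -0.15 ± 0.14, -0.28 ± 0.23 and -0.23 ± 0.24 (adjusted p = 0.508, 0.434 and 0.545). No change of Erbb3 was called, and its second-experiment counts of 22 to 53 per library leave a wide error.

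Erbb4 measured 88.2, 61.0 and 75.3 CPM in LIN9 wt and 63.0, 63.8 and 46.2 CPM in LIN9 KO libraries of the first experiment. Its log2 fold change of -0.38 ± 0.15 was not called (adjusted p = 0.0990). It was called with all genes of at least 1 count in the fit (adjusted p = 0.0266) or without LIN9 wt library 2 (-0.50, adjusted p = 0.0383). In the second experiment Erbb4 measured 81.4, 204 and 199 CPM in LIN9 wt Sav1 wt, 39.8, 103 and 191 in LIN9 KO Sav1 wt, 149, 198 and 185 in LIN9 wt Sav1 KO and 172, 206 and 175 in LIN9 KO Sav1 KO libraries. By replicate number, each LIN9 KO Sav1 wt library lay below the LIN9 wt Sav1 wt library of the same number. The labels do not say that equal numbers mark pairs. The first library of both Sav1 wt groups was low, and the groups overlapped. The log2 fold changes on LIN9 loss were -0.54 ± 0.52 with Sav1 wt and 0.06 ± 0.51 with Sav1 KO (adjusted p = 0.538 and 0.956). Without these 2 libraries, an alternative chosen after the values were seen, the change with Sav1 wt was -0.46 ± 0.28 and was not called either (adjusted p = 0.331). Leaving out 1 library at a time moved it between -0.15 (without LIN9 KO Sav1 wt library 1) and -1.21 (without library 3 of that group), and it was -0.87 without LIN9 wt Sav1 wt library 1; none of these was called (adjusted p from 0.134 to 0.847).

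The low Erbb4 libraries also stood apart in the balance of GC-poor and GC-rich genes. For genes with a mean of at least 5 CPM, log2 CPM was taken relative to the mean of the LIN9 wt libraries with wild-type Sav1 of the same experiment. A GC index was then the median over the genes in the lowest quartile of GC content minus the median over those in the highest. It was -0.43 in the LIN9 KO Sav1 wt library 1 and -0.21 in the LIN9 wt Sav1 wt library 1, and between -0.07 and 0.25 in the other 10 libraries of the second experiment. In the first experiment it lay between -0.12 and 0.08. The part of this balance in the Erbb4 values was not tested.

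**Figure D2:**
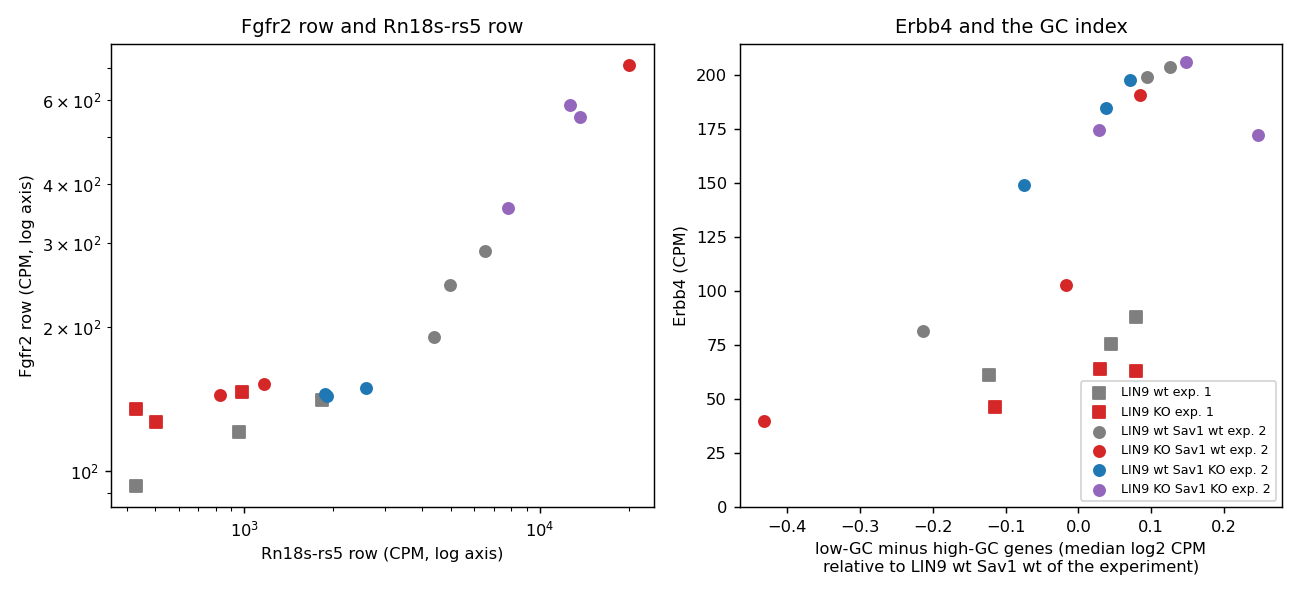
Left, CPM of the Fgfr2 row against the Rn18s-rs5 row on log axes; right, Erbb4 CPM against the GC index (median log2 CPM of GC-poor minus GC-rich genes), 1 point per library, squares for the first and circles for the second experiment. The library with 709 CPM at Fgfr2 has 20025 CPM at Rn18s-rs5, and the library with 39.8 CPM of Erbb4 has the index of -0.43.

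Fgf9 (chromosome 14, 58070547 to 58112720, plus strand) measured 11.8, 9.91 and 13.2 CPM in LIN9 wt and 11.0, 9.23 and 10.2 CPM in LIN9 KO libraries of the first experiment. In the second it measured 9.97, 17.5 and 9.34 CPM in LIN9 wt Sav1 wt, 11.5, 12.5 and 10.1 in LIN9 KO Sav1 wt, 10.1, 15.9 and 10.6 in LIN9 wt Sav1 KO and 14.0, 8.80 and 8.18 in LIN9 KO Sav1 KO libraries. The groups of this FGF ligand overlapped throughout. Its log2 fold changes on LIN9 loss were -0.20 ± 0.16, -0.11 ± 0.26 and -0.23 ± 0.27, none of them called (adjusted p = 0.432, 0.828 and 0.584). Fgf16 (chromosome X, 105764279 to 105774939, plus strand), the other ligand, was close to absent from these libraries. It had 0, 3 and 1 counts in LIN9 wt and 0, 7 and 1 counts in LIN9 KO libraries of the first experiment, and 0 to 3 counts per library in the second. As 3 counts per library is the limit that a count of 0 allows, no fold change is given for Fgf16, and a difference was not detectable at this depth.

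Fgfr1 (chromosome 8, 25513654 to 25575718, plus strand), an FGF receptor tyrosine kinase, measured 70.0, 71.8 and 63.7 CPM in LIN9 wt and 99.3, 104 and 106 CPM in LIN9 KO libraries of the first experiment. Its log2 fold change was 0.59 ± 0.10, or 1.51-fold (adjusted p = 0.000507). In the second experiment it measured 71.1, 73.0 and 68.1 CPM in LIN9 wt Sav1 wt and 124, 128 and 104 CPM in LIN9 KO Sav1 wt libraries, a rise of 0.75 ± 0.11, or 1.68-fold (adjusted p = 1.13e-05). With Sav1 deleted it measured 70.3, 68.9 and 64.1 CPM with LIN9 wt and 98.5, 107 and 124 CPM with LIN9 KO, a rise of 0.69 ± 0.11, or 1.62-fold (adjusted p = 3.37e-05). In each of the 3 comparisons the groups did not overlap.

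The Fgfr2 row cannot be read as Fgfr2 mRNA alone. In GENCODE M21 the gene spans 2960900 bases of chromosome 7 (130162451 to 133123350, minus strand), and 69 other genes touch that span. Of these, 68 had 0 counts in all 18 libraries, among them 29 of 30 protein-coding genes, and the remaining gene, Ctbp2, had 62 counts in all. This is how a table looks when reads are counted over whole gene spans and those shared by 2 genes are dropped, and the sources used here do not give the counting mode. In the first experiment the row held 121, 140 and 92.8 CPM in LIN9 wt and 146, 134 and 127 CPM in LIN9 KO libraries (log2 fold change 0.20 ± 0.13, adjusted p = 0.334).

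In the second experiment the Fgfr2 row held 191, 245 and 289 CPM in LIN9 wt Sav1 wt, 144, 152 and 709 in LIN9 KO Sav1 wt, 145, 143 and 149 in LIN9 wt Sav1 KO and 356, 552 and 585 in LIN9 KO Sav1 KO libraries. All LIN9 KO Sav1 KO libraries lay above all LIN9 wt Sav1 KO libraries, yet the change of 1.77 ± 0.60 was not called in the fit of 12 libraries (adjusted p = 0.0677), in which the wide LIN9 KO Sav1 wt group enters the error. It was called in the fit of the 6 libraries alone (adjusted p = 2.34e-07), in DESeq2 (0.0138), without LIN9 KO Sav1 wt library 1 (0.0430) and without library 3 (6.45e-05). Without that library 3, the change on LIN9 loss with Sav1 wt turned from 0.47 ± 0.58 to -0.74 and was called (adjusted p = 0.0325). The same row followed the RNA of ribosomal rows chosen after the values were seen. Rn18s-rs5 measured 827, 1164 and 20025 CPM in the 3 LIN9 KO Sav1 wt libraries, 1868 to 2581 in LIN9 wt Sav1 KO, 4383 to 6530 in LIN9 wt Sav1 wt and 7760 to 13646 CPM in LIN9 KO Sav1 KO libraries. Their part in the Fgfr2 values was not tested.

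**Figure D3:**
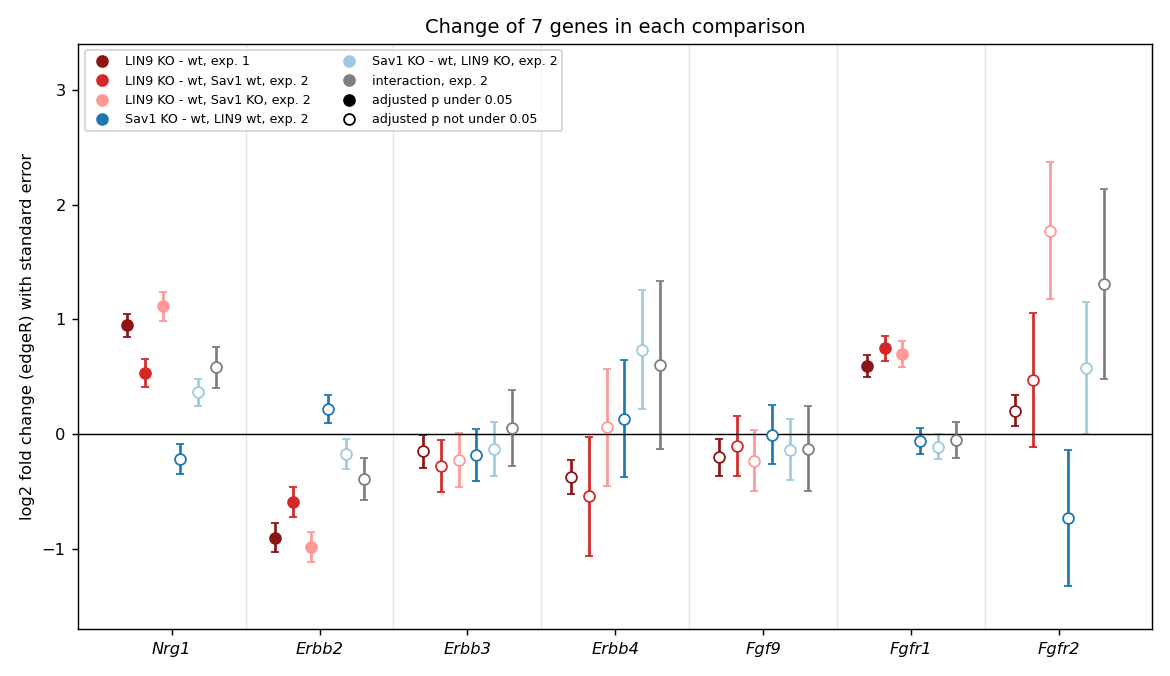
Log2 fold change of 7 genes (all but Fgf16) in each comparison, with the edgeR standard error as bars; filled points passed an adjusted p of 0.05. Nrg1, Erbb2 and Fgfr1 carry the filled points, 1 for each LIN9 comparison, and bars are widest for Erbb4 and Fgfr2 in the second experiment.

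The effect of Sav1 loss was compared in the second experiment. None of the 8 was called by edgeR in LIN9 wt ventricles, where 0.017% of 17675 genes (3 genes) were called, and none had an unadjusted p under 0.05. None was called in LIN9 KO ventricles either, where 0.0113% of genes (2 genes) were called, and 1 of the 8, Nrg1, had an unadjusted p under 0.05. DESeq2 also called 0 of the 8 in both. Few genes pass in these comparisons, so this does not show that the levels were equal. The log2 change of Nrg1 was -0.22 ± 0.13 with LIN9 wt (unadjusted p = 0.107) and 0.36 ± 0.12 with LIN9 KO (unadjusted p = 0.00490, adjusted p = 0.205). With LIN9 wt, Erbb2 changed by 0.22 ± 0.12 and the Fgfr2 row by -0.73 ± 0.59, and neither was called (adjusted p = 0.999 for both). With LIN9 KO, Erbb2 changed by -0.18 ± 0.13. The values of Fgfr1 were -0.06 ± 0.12 with LIN9 wt and -0.11 ± 0.11 with LIN9 KO, on the log2 scale.

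The interaction asks whether the effect of Sav1 differed between LIN9 KO and LIN9 wt ventricles. Across all genes, 0% (0 of 17675) were called in edgeR and 0 in DESeq2, with 1156 genes at an unadjusted p under 0.05. Nrg1 had an interaction of 0.58 ± 0.18 on the log2 scale (unadjusted p = 0.00276, adjusted p = 0.678) and Erbb2 of -0.39 ± 0.18 (unadjusted p = 0.0386, adjusted p = 0.756), so 2 of the 8 passed before and none after adjustment. For Fgfr1 it was -0.05 ± 0.16. The Fgfr2 row gave 1.31 ± 0.83 (adjusted p = 0.843), and 2.48 when LIN9 KO Sav1 wt library 3 was left out (adjusted p = 0.00628). In that fit its Sav1 effect in the LIN9 KO background was 1.74 (adjusted p = 0.00624), against 0.57 ± 0.58 in all libraries.

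Levels of different genes were compared per kilobase of exon. In LIN9 wt ventricles of the first experiment, Erbb2 had the highest level of the 8 genes (25.7 ± 2.27 CPM per kb, SD, n = 3). Fgfr1 (6.94 ± 0.43) and Erbb4 (6.06 ± 1.10) came next after the Fgfr2 row (11.4 ± 2.32), and their libraries overlapped. Nrg1 followed at 3.20 ± 0.17, then Erbb3 at 2.83 ± 0.14 and Fgf9 at 2.51 ± 0.36, which overlapped each other, and Fgf16 at 0.0851 ± 0.0980. In the LIN9 wt Sav1 wt libraries of the second experiment Erbb2 stood at 25.7 ± 2.98 and overlapped the Fgfr2 row (23.4 ± 4.77). Erbb4 (13.1 ± 5.62) overlapped Fgfr1 (7.16 ± 0.25), followed by Nrg1 (3.85 ± 0.13), Erbb3 (2.81 ± 0.32), Fgf9 (2.64 ± 0.97) and Fgf16 (0.0694 ± 0.120). Here too the libraries of Erbb3 and Fgf9 overlapped, and the highest Fgf9 library (3.76) lay above the lowest of Nrg1 (3.73). Where reads in introns were counted, the genes with the longest spans after Fgfr2, Nrg1 (1069479 bases) and Erbb4 (1075874 bases), are set too high on this scale.

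The rest of both pathways was followed in 78 listed genes, of which 68 could be tested in the first and 65 in the second experiment. The lists were chosen with earlier results of these data known. On LIN9 loss, 16 rose and 6 fell in the first experiment, 21 rose and 2 fell with Sav1 wt in the second, and 20 rose and 6 fell with Sav1 KO. Over all genes, 11.1% were called higher and 9.78% lower in the first experiment, 12.8% and 10.5% with Sav1 wt and 11.8% and 11.6% with Sav1 KO in the second. The median log2 changes of the pathway genes were 0.17, 0.29 and 0.24, against 0.02, 0.01 and 0.03 for all genes. Called in the same direction in both LIN9 comparisons with wild-type Sav1 were 15 pathway genes, 13 higher and 2 lower, while 14.8% of all 17656 genes tested in both met that rule. In the Sav1 comparisons and the interaction edgeR called 0 of 65, with 4, 9 and 4 at an unadjusted p under 0.05, and DESeq2 called 0. On Sav1 loss with LIN9 KO, 3 pathway genes were called with no filter, and 3 without LIN9 KO Sav1 wt library 3.

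ERK feedback and response genes, the targets and inhibitors that the cascade induces, made up 8 of those 15. Of 16 tested, 9 rose in the first experiment, 13 with Sav1 wt in the second and 11 with Sav1 KO; none fell, and all 16 had a positive log2 change in each comparison. Over all genes, 11.1%, 12.8% and 11.8% were called higher. As the list was chosen with earlier results of these data known, these shares describe and do not test. DESeq2 called 10, 9 and 9 of them. Dusp4, an ERK phosphatase, measured 13.0, 11.6 and 14.5 CPM in LIN9 wt Sav1 wt and 83.2, 57.7 and 49.6 CPM in LIN9 KO Sav1 wt libraries of the second experiment. These groups did not overlap, and Dusp4 rose by 2.07 ± 0.15 on the log2 scale in the first and by 2.28 ± 0.18 in the second experiment (adjusted p = 8.27e-07 and 2.78e-10). Etv5, a transcription factor induced by FGF signalling, rose by 1.15 ± 0.11 and 1.49 ± 0.18 (adjusted p = 5.15e-06 and 2.29e-06). Dusp6, another ERK phosphatase, rose by 0.35 ± 0.11 and 0.40 ± 0.13 (adjusted p = 0.0289 and 0.0226). Spred1, an inhibitor of RAS signalling, rose by 0.34 ± 0.09 and 0.57 ± 0.11 (adjusted p = 0.0172 and 0.000302).

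**Figure D4:**
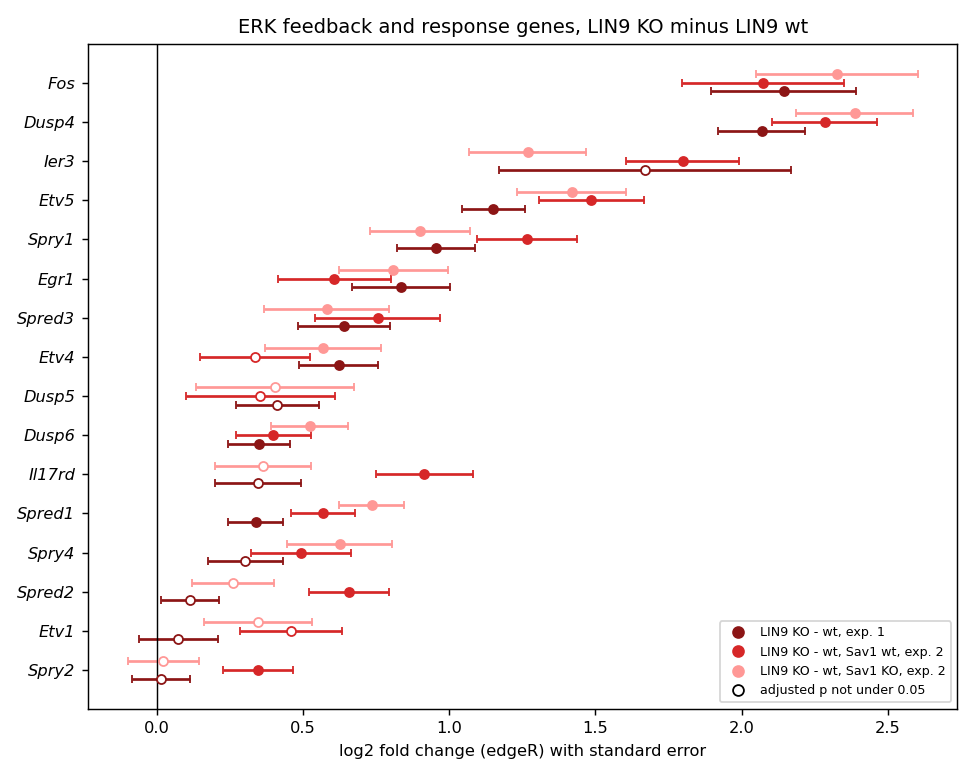
Log2 fold change of the 16 tested ERK feedback and response genes, LIN9 KO minus LIN9 wt, in the 3 comparisons, with edgeR standard errors; open points did not pass an adjusted p of 0.05. All points lie above 0, from 0.02 for Spry2 at the bottom in the first experiment to between 2.07 and 2.39 for Fos and Dusp4 at the top.

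Of the ErbB side, Egfr, the epidermal growth factor receptor, rose from 6.90, 5.06 and 3.95 to 11.8, 15.7 and 13.7 CPM in the first experiment. That was 1.37 ± 0.20 on the log2 scale, and 1.48 ± 0.24 with Sav1 wt in the second (adjusted p = 0.000224 and 2.69e-05). Of 8 genes for ErbB ligand shedding and feedback, 2, 3 and 2 rose and 1, 0 and 1 fell in the 3 LIN9 comparisons. Errfi1, a feedback inhibitor of ErbB kinases, rose by 1.10 ± 0.12 and 0.90 ± 0.16 (adjusted p = 2.20e-05 and 0.000102), and Adam19, a membrane protease that can shed neuregulin, rose by 0.45 ± 0.12 and 0.54 ± 0.11 (adjusted p = 0.0126 and 0.000813). Of 10 other EGF family ligands, 1 rose and 2 fell in the first experiment, 0 of 9 were called by edgeR with Sav1 wt in the second (2 at an unadjusted p under 0.05, and DESeq2 called 0) and 2 rose with Sav1 KO, where DESeq2 called 0.

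Of 16 other FGF ligands, 10 had counts and 8 in the first and 6 in the second experiment could be tested. Fgf23, a hormone-like FGF known from bone, was the called one in each comparison. It had 12, 13 and 10 counts in LIN9 wt and 69, 57 and 85 counts in LIN9 KO libraries of the first experiment (log2 fold change 2.59 ± 0.26, adjusted p = 7.97e-06). In the second it had 1, 4 and 1 counts in LIN9 wt Sav1 wt and 35, 37 and 12 in LIN9 KO Sav1 wt libraries, where the low control counts leave the size uncertain. Listed at 0 in all libraries were Fgf1, Fgf2, Fgf4, Fgf7, Fgf15 and Fgf20; Fgf1 and Fgf7 lie within the spans of Arhgap26 and Fam227b, as did the uncounted neighbours of Fgfr2. Of 6 tested FGF receptors and co-receptors, 1, 0 and 1 rose; with Sav1 wt in the second experiment, edgeR had 2 of them at an unadjusted p under 0.05, and DESeq2 called 0 with Sav1 wt and 0 with Sav1 KO.

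Of 19 adaptors and kinases of the ERK cascade, 1, 3 and 2 rose and 3, 2 and 5 fell in the 3 LIN9 comparisons. The share called, 21.1%, 26.3% and 36.8%, was close to that of all genes (20.9% and 23.2%) in the first 2 and stood beside 23.4% in the last. Gab1, a docking protein, fell by 0.63 ± 0.10 in the first experiment and by 0.30 ± 0.10 with Sav1 wt in the second (adjusted p = 0.000555 and 0.0339). Gab2, the relative of Gab1, rose by 0.49 ± 0.10 and 0.47 ± 0.12 (adjusted p = 0.00223 and 0.00522).

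Markers of cell types moved with LIN9 loss as well. In bulk tissue, fewer cells of a type and less RNA per cell cannot be told apart. Of 8 counted cardiomyocyte markers, 5 fell and none rose in each LIN9 comparison; their summed level was 17694 to 18838 CPM in LIN9 wt and 8140 to 12877 CPM in LIN9 KO libraries of the first experiment, and 20457 to 22147 against 11257 to 12381 CPM with Sav1 wt and 23200 to 24105 against 10644 to 14291 CPM with Sav1 KO in the second. Actc1, a defining cardiomyocyte marker, was listed at 0 and lies within the span of A530058N18Rik. Of 8 epicardial markers, 7 rose in each comparison, from 342 to 361 CPM in LIN9 wt to 651 to 745 CPM in LIN9 KO libraries of the first experiment. In the second experiment their sum was 319 to 323 against 607 to 689 CPM with Sav1 wt and 278 to 325 against 566 to 590 CPM with Sav1 KO. Of 8 fibroblast and cushion mesenchyme markers, 7, 7 and 8 rose, with sums of 2288 to 2616 against 4714 to 5109 CPM, 2997 to 3223 against 5319 to 6725 CPM and 2943 to 3499 against 5353 to 6872 CPM. Of 10 endothelial and endocardial markers, 4, 4 and 6 rose and 0, 1 and 1 fell, with sums that overlapped in the first experiment (1169 to 1491 against 1373 to 1787 CPM) and did not in the second (1298 to 1333 against 1389 to 1592 CPM with Sav1 wt, 1134 to 1226 against 1270.0 to 1502 CPM with Sav1 KO). Of 6 atrial markers, 1, 2 and 2 rose and none fell, with sums of 2995 to 3865 against 4007 to 4987 CPM, 2920 to 3380 against 3809 to 4535 CPM and 2733 to 3175 against 3575 to 4068 CPM. The median log2 changes of these 6 were 0.36, 0.14 and -0.02. Nppa, 1 of them, rose by 1.59, 1.76 and 2.04 on the log2 scale. The 5 counted erythroid markers all rose, as did 5, 3 and 5 of 6 macrophage markers. Sums of the erythroid markers were 56.3 to 107 against 330 to 851 CPM in the first experiment. They were 35.6 to 38.2 against 186 to 338 CPM with Sav1 wt and 25.2 to 26.6 against 127 to 208 CPM with Sav1 KO. Of 4 smooth muscle markers, 1 rose in each comparison and 0, 1 and 1 fell. Of 5 neural crest and Schwann precursor markers, 2 could be tested and 0, 1 and 0 fell, with low sums of 9.80 to 10.7 against 5.76 to 8.28 CPM, 10.6 to 19.5 against 5.59 to 10.5 CPM and 14.8 to 16.7 against 9.54 to 12.3 CPM, none of which overlapped. Erbb2 fell where cardiomyocyte markers and the neural crest sums were lower. Nrg1 and Fgfr1 rose where markers of the epicardial, mesenchymal, erythroid and macrophage lists rose. The endothelial and endocardial list was mixed, and Kdr was its 1 marker called lower in the second experiment (-0.83 with Sav1 wt, -0.67 with Sav1 KO). The atrial sums were higher, though most atrial markers were not called. The part of these cells in the 3 genes and in the ERK feedback and response genes was not tested.

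The genes whose levels most resembled each of the 7 genes above 5 CPM were found by Pearson's r of log2 CPM over 18 libraries among 12118 genes. The libraries share genotype, depth and experiment, so these values describe and do not test. Nearest to Nrg1 were Nppb (0.95), which encodes a natriuretic peptide, Ncoa4 (0.94) and Tor1aip2 (0.94). Nearest to Erbb2 were Jph2 (0.97), which encodes a junction protein of muscle membranes, Ivd (0.97) and Tln2 (0.97). Nearest to Fgfr1 were the receptor kinase gene Axl (0.98) and the collagen genes Col5a2 (0.98) and Col1a2 (0.98), of which Col1a2 is in the mesenchyme list. Nearest to Erbb4 were Zbtb20 (0.98), Ppp1r9a (0.96) and Ccdc88a (0.96), and nearest to the Fgfr2 row Col6a6 (0.99) and Cd44 (0.97). Erbb3 was nearest to Plvap (0.87), an endothelial marker in the lists, Gm7895 (0.83) and Rbm22 (0.82), and Fgf9 to Snapc5 (0.80), Ngdn (0.75) and Cmpk1 (0.73).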

How the data were processed

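RNA-seq counts of 18 libraries were used, and 4 ChIP-seq samples were not analysed. The deposited tables hold whole read counts for Ensembl genes, from samples brought to a like depth. To make these counts, the authors mapped reads with TopHat 2.1.0 and BOWTIE2 to mm10, reduced samples to the smallest number of mappable reads and ran summarizeOverlaps; overlap mode and strand setting are not given in the sources used here. Tables of the authors' own fold changes and p-values were not used. Per-sample columns left unused numbered 0, and 4 repeated identifiers in each table were kept once. Positions and exon lengths came from GENCODE M21 on mm10.

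After TMM normalization, genes with a mean count above 1 entered edgeR (4.0.16, R 4.3.3), with a robust quasi-likelihood fit and Benjamini-Hochberg adjustment over all genes tested. All 12 libraries of the second experiment entered 1 fit, from which the comparisons were drawn as contrasts. Log2 CPM used a prior count of 2. The script was tested on simulated data. No 2 libraries of a group agreed within sampling noise, but some came close. The chi-square per gene of a pair, about 1 under sampling noise alone, was 1.22 for LIN9 wt Sav1 wt libraries 2 and 3. It was 1.39 to 1.98 within LIN9 wt Sav1 KO, and highest, at 26.2, for LIN9 KO libraries 1 and 3 of the first experiment. These values do not tell separate embryos from technical libraries.

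The members and the gene lists were chosen with earlier results of these data known. Named are all 8 genes, Lin9, Sav1, up to 4 genes of each pathway list called in the same direction in both LIN9 comparisons with Sav1 wt (those with the highest mean CPM) and the 3 genes most like each member with a mean of at least 5 CPM. Some genes that this rule names are not reported here. Alternatives were RLE size factors, DESeq2 (1.42.0), no filter, a mean count above 10, a replicate block, fits of 6 libraries and leaving out each library. Deviations from group means were correlated between libraries of the same replicate number. Every such pair was over 0.1 for both Sav1 wt groups of the second experiment (0.257 to 0.637). The same held for both LIN9 wt groups (0.102 to 0.330) and for LIN9 KO Sav1 wt with LIN9 wt Sav1 KO (0.116 to 0.358), which were not compared. For the other pairs of groups the values ranged from -0.104 to 0.285. Unlike numbers could correlate as well. LIN9 wt Sav1 wt library 2 gave 0.290 with LIN9 KO Sav1 wt library 3 and 0.257 with library 2. LIN9 wt Sav1 wt library 1 gave -0.357 and -0.454 with LIN9 KO Sav1 wt libraries 2 and 3. Libraries numbered 2 and 3 were thus not shown to be pairs.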

Additional observations from a re-analysis of the deposited data

How the results depend on the processing

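Nrg1, Erbb2 and Fgfr1 kept their direction and an adjusted p under 0.05 in the 3 LIN9 comparisons under all 147 alternatives run, with a highest adjusted p of 0.0194. In the Sav1 comparisons and the interaction none of the 3 was called in 168 alternatives. Of 420 alternatives for Erbb3, Erbb4, Fgf9 and Fgfr2, 389 kept direction and call, 8 were newly called in the same direction and 23 turned the direction, 1 of them newly called as well, so that 9 were called in all; the cause was not tested. Erbb3 counts of 22 to 53 and Fgf9 counts of 23 to 51 per library in the second experiment limit what can be seen.

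The replicate block changed no call of a member. With it, 5001 genes were called in the first experiment and 4370 and 4488 on LIN9 loss in the second, 2 and 84 on Sav1 loss with LIN9 wt and LIN9 KO, and 0 in the interaction. Genes called on Sav1 loss with LIN9 wt (3) became 22 with no filter, 31 in the fit of 6 libraries and 15 without both low Erbb4 libraries. On Sav1 loss with LIN9 KO (2) they became 77 in DESeq2, 309 with no filter, 0 with a mean count above 10, 0 in the fit of 6 libraries and 34 without both low Erbb4 libraries. In the interaction (0) they became 17 with no filter and 4 without both.

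Leaving out each library in turn gave 2722 to 4223 genes on LIN9 loss in the first experiment (2722 without LIN9 wt library 3), 0 to 7 on Sav1 loss with LIN9 wt, 0 to 378 with LIN9 KO and 0 to 64 in the interaction, the last 2 highest without LIN9 KO Sav1 wt library 3, where 1 member, Fgfr2, was called (0 to 1).

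Log2 changes that turned direction when a library was left out ranged as follows. On LIN9 loss with Sav1 wt in the second experiment, Fgf9 ranged from -0.27 to 0.20 and Fgfr2 from -0.74 to 0.82. On LIN9 loss with Sav1 KO, Erbb4 ranged from -0.054 to 0.14, Fgf9 from -0.55 to 0.00021, Lin9 from -0.33 to 0.019 and Sav1 from -0.028 to 0.10. On Sav1 loss with LIN9 wt, Erbb4 ranged from -0.18 to 0.33, Fgf9 from -0.25 to 0.32 and Lin9 from -0.27 to 0.074. On Sav1 loss with LIN9 KO, Erbb3 ranged from -0.39 to 0.071 and Fgf9 from -0.43 to 0.0096. In the interaction, Erbb3 ranged from -0.20 to 0.26, Fgf9 from -0.43 to 0.14 and Fgfr1 from -0.13 to 0.024. Without both low Erbb4 libraries, an alternative chosen after the values were seen, Erbb4 turned to -0.18 on Sav1 loss with LIN9 wt, Erbb3 to 0.070 on Sav1 loss with LIN9 KO and Fgf9 to 0.015 in the interaction.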
